A study of Mus musculus with 12 samples.

Results

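The transcripts described here encode 7 dual-specificity phosphatases that act on mitogen-activated protein (MAP) kinases, Dusp1, Dusp4, Dusp5, Dusp6, Dusp10, Dusp14 and Dusp16. The 7 were chosen with earlier results of these data known. Their rows were found by gene symbol among the 48321 genes of the RNAseq table. All 7 passed the filter on low values (at least 10 normalized counts in at least 3 libraries), as did 11998 genes in all. In immortalized murine brown adipocytes, 1 of these transcripts was called in 1 of the comparisons between groups, where 3.82% of all tested genes were called. Dusp5, a nuclear phosphatase of ERK, was higher in unstimulated cells that carried truncated Sema4B than in unstimulated vector cells, on 7 to 27 reads per library. Its unstimulated vector libraries (5.89 to 8.71 normalized counts) were all under the filter, which it passed through the other groups, so its p-value only describes these libraries. The call was lost, with an adjusted p above 0.05, when any of 5 of the 6 libraries compared was left out. The log2 fold change stayed between 1.26 and 1.72 in all 6 such fits.

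The cells were WT brown preadipocytes of a newborn mouse that had been immortalized with SV40 large T antigen. They were then transduced with lentivirus carrying either the empty pLEX vector (vector) or pLEX with Flag-tagged truncated Sema4B, a mimetic of the form that the protease ADAM17 releases (tSema4B), and selected with puromycin. One stable line stood for each construct, so tSema4B and vector stand for 2 lines and not for several transductions. Cells of all 4 groups were differentiated with isobutyl methylxanthine, rosiglitazone, dexamethasone, insulin and triiodothyronine and used on day 8, when they were kept in serum-free medium with bovine serum albumin, with 2 μM norepinephrine (NE) for 6 h or without it. Isobutyl methylxanthine blocks the breakdown of cAMP and dexamethasone activates the glucocorticoid receptor, and both had been given at the start of differentiation to every group. The 4 groups, of 3 libraries each, are called vector unstimulated, vector NE, tSema4B unstimulated and tSema4B NE. The labels number the libraries of a group but do not say whether they came from separate cultures, so the p-values cover the spread between these libraries, which may be technical.

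MAP kinases (ERK, p38 and JNK) are switched on when a threonine and a tyrosine in their activation loop are phosphorylated, and dual-specificity phosphatases remove both phosphates. Several of these phosphatases are themselves transcribed in response to MAP kinase or cAMP signalling and so close a negative feedback loop. In brown adipocytes NE acts through beta-adrenoceptors, cAMP and protein kinase A, and p38 is one of the kinases that carries the signal to thermogenic genes. Dusp1, Dusp4 and Dusp5 are inducible phosphatases of the nucleus. Dusp6 is the cytoplasmic phosphatase of ERK, Dusp10 and Dusp16 prefer p38 and JNK, and Dusp14 is a small enzyme that lacks the kinase-docking domain of the others.

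Libraries held 2000780 to 5409583 reads on genes, and a single read was worth 0.593 to 1.55 normalized counts. Vector libraries were the deeper ones in either condition (2841941 to 3682634 against 2000780 to 2541747 reads unstimulated, 4739777 to 5409583 against 2307190 to 3144946 after NE). Reads on Sema4b, which cannot separate the construct from the endogenous gene, gave 258257 to 316850 normalized counts in tSema4B unstimulated and 208760 to 270694 in tSema4B NE. The vector line also held them at a high level, with 110786 to 124008 unstimulated and 65472.5 to 81754 after NE. The cause of this level was not tested. A comparison of tSema4B with vector thus sets a higher level of these reads against a high one. The labelled cell type was checked against 12 markers of mature brown adipocytes. Their summed normalized counts were 33168 to 36920 in vector unstimulated and 46771.5 to 59357 in vector NE, but 5321 to 7915 in tSema4B unstimulated and 9496 to 10886 in tSema4B NE. Adipoq, the adipokine adiponectin, had a mean of 2458 ± 297 normalized counts in vector unstimulated and 436 ± 35.3 in tSema4B unstimulated (SD, n = 3). Ucp1, the uncoupling protein that defines brown fat, was at 0 in all tSema4B unstimulated libraries, which allows up to 3 reads in each, and had a mean of 12.1 ± 2.98 in vector unstimulated. A list of 8 preadipocyte markers summed to 9310 to 9678 in vector unstimulated and to 16495 to 18691 in tSema4B unstimulated. Such a sum weighs the most abundant genes most. Of the 7 tested markers 6 were higher and 1 was lower in tSema4B unstimulated, with a median log2 fold change of 0.52. The share of normalized counts from mitochondrially encoded genes was 13.4 to 16.7% in vector libraries and 6.91 to 7.89% in tSema4B libraries. The part of these differences in any phosphatase result was not tested, and in bulk RNA fewer cells of a type and less RNA per cell cannot be told apart.

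Promoter sequence from RefSeq (GRCm38.p6) was matched for 6 of the 7 genes, and the set of promoters used here held no entry for Dusp4. Each window held 250 bases before to 50 bases after the RefSeq start. The cAMP response element TGACGTCA, its first 5 letters TGACG (which also lie inside the full element), the AP-1 site TGANTCA and the CArG box bound by serum response factor were searched on both strands. The 2 windows that held a full cAMP response element or a CArG box, those of Dusp1 and Dusp5, are shown because these elements are classical targets of cAMP and ERK signalling, whose other target genes were also measured. Only the stretch upstream of every annotated transcript start within the window is printed, 5′ to 3′ on the strand of the gene, with the matches in capitals.
Dusp1, chr17:26508520-26508722, minus strand: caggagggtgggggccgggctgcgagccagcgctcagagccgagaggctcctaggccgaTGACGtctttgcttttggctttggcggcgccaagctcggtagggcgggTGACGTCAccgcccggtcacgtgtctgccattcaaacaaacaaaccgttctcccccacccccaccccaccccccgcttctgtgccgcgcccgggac
Dusp5, chr19:53528895-53529108, plus strand: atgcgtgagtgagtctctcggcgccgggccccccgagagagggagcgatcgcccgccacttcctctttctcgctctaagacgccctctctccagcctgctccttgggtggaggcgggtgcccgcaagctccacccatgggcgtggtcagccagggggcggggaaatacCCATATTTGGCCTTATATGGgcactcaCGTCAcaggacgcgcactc

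In Dusp1 the full cAMP response element began at position -143 from the RefSeq start, and 588 of 32851 promoter windows of the same length (1.79%) held one. A longer annotated Dusp1 transcript starts further upstream, so the printed stretch lies inside the annotated gene. Whether it holds exon of that transcript was not checked. In Dusp5 there were 2 CArG boxes, side by side, and 1.63% of all windows held at least 1. Dusp5 also had 1 match to the 5-letter form at position -55, read on the opposite strand, and Dusp16 had 1 at position -70, against 20.8% of all windows with a match. The windows of Dusp6, Dusp10 and Dusp14 held none of the 4 motifs, and none of the 6 windows held the AP-1 site, which was in 7.81% of all windows. A match describes letters in these windows and not binding of a factor.

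The levels of the 7 transcripts were compared per kilobase of exon, with GENCODE M21 lengths on GRCm38, over all 12 libraries. Dusp6 (chr10:99263231-99267489) was the most abundant at 51.7 ± 10.4 normalized counts per kb (SD, n = 12 libraries), and Dusp1 (chr17:26505590-26562128) came next at 43.1 ± 6.45. Dusp14 (chr11:84048041-84069261) stood at 31.9 ± 7.11 and Dusp10 (chr1:184013302-184075636) at 22.7 ± 5.73 per kb. Lower levels were found for Dusp4 (chr8:34807297-34819894), with 17.0 ± 3.89 per kb, Dusp16 (chr6:134715468-134792625), with 10.6 ± 3.10, and Dusp5 (chr19:53529109-53542431), with 6.50 ± 3.20. Every gene overlapped with its neighbour in this order, and the gene ranked higher was above the next in 9 to 11 of 12 libraries. The order is that of means pooled over groups. In tSema4B unstimulated the mean of Dusp5 was 9.47 per kb and that of Dusp16 9.12. The order at the top depended on the gene model, since with the longest transcript as length Dusp1 had 61.6 and Dusp6 58.0 per kb. In reads, Dusp5 was the least supported, with 7 to 32 per library and a median of 14. The medians of the others ran from 43 (Dusp4) to 142 (Dusp6). In the annotation 547 exon bases of Dusp5 are shared with AC137853.2 on the opposite strand and 11 of Dusp1 with Ergic1. As the strand setting of the counting is not given in the sources used here, reads from these partners cannot be told apart.

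**Figure D1:**
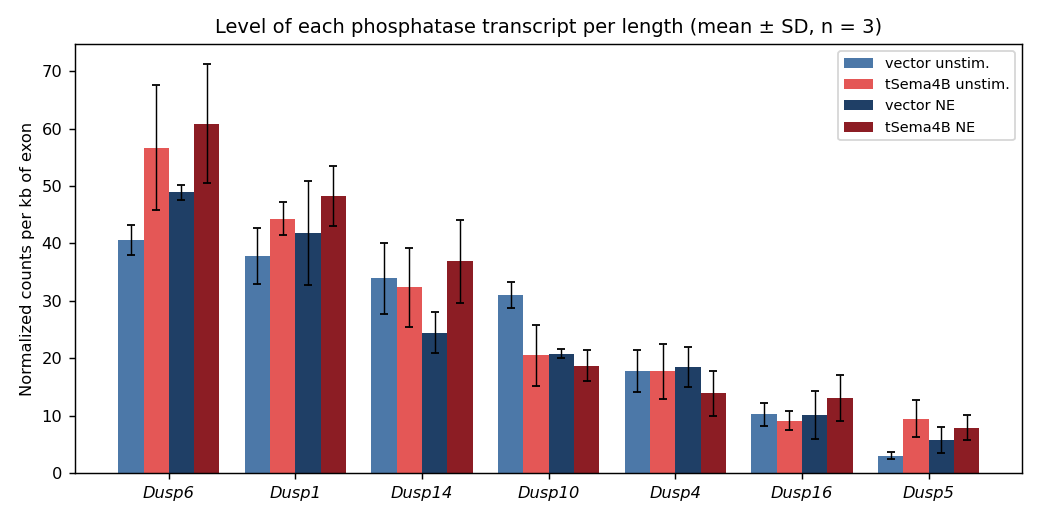
Mean normalized counts per kb of exon (y axis) of the 7 phosphatase transcripts (x axis, in order of their mean over 12 libraries) in the 4 groups, with bars for the mean and error bars for the SD (n = 3 libraries). In the mean over 12 libraries Dusp6 and Dusp1 were the most abundant and Dusp5 the least. In tSema4B unstimulated, Dusp5 (9.47) stood above Dusp16 (9.12).

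The first comparison asked how these transcripts stood after 6 h of NE in vector cells. None of the 7 was called by limma, which took an adjusted p up to 0.05 together with a log2 difference of 1 or more in either direction. In this comparison 2.63% of all tested genes were called. At an unadjusted p under 0.05 there was 1 of 7 (Dusp10), against 23.9% of all genes, and edgeR and DESeq2 on the recovered reads called 0. The groups did not overlap for 3 of the 7, namely Dusp6, which was higher, and Dusp10 and Dusp14, which were lower, whereas 33.3% of all genes showed no overlap. The median log2 fold change of the 7 was 0.06, beside -0.02 over all genes. A marker of macrophages, Csf1r, was higher with NE, at 1 or 2 reads in vector unstimulated libraries and 15 to 22 in vector NE. It was the 1 of 6 listed that passed the filter, through the NE libraries alone, so its difference is given without a test. The 6 summed to 3.36 to 7.60 normalized counts unstimulated and 13.4 to 23.6 after NE in vector, most of it Csf1r after NE, while Adgre1 and Ptprc, defining markers of macrophages and of leukocytes, were at 0 in all 12 libraries of the series.

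Dusp1, an immediate-early phosphatase and a familiar cAMP-responsive gene, had 134, 107 and 135 normalized counts in the vector unstimulated libraries and 170.0, 136 and 110.0 in vector NE. The groups overlapped, at a log2 difference of 0.13 (SE 0.178, adjusted p = 0.725) and a 95% confidence interval from -0.24 to 0.50. A doubling or halving of Dusp1 at 6 h therefore lay outside the interval. Earlier times were not measured. Dusp4, its nuclear relative, ranged from 37.0 to 55.4 unstimulated and from 40.9 to 59.8 after NE, with an interval of the log2 fold change from -0.57 to 0.69. Dusp5 had 7.60, 5.89 and 8.71 normalized counts unstimulated and 15.5, 19.0 and 7.86 after NE. Replicate 3 of vector NE lay within the unstimulated range, and its NE difference of 0.78 in log2 (SE 0.467, adjusted p = 0.334) had the widest interval of the 7, from -0.19 to 1.75.

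Dusp6, the cytoplasmic ERK phosphatase, stood at 124, 121 and 136 in vector unstimulated and at 151, 151 and 158 in vector NE. All NE libraries were above all unstimulated libraries, but the log2 fold change was 0.27 (SE 0.167, adjusted p = 0.351; 95% confidence interval -0.08 to 0.62). Dusp10, a phosphatase of p38 and JNK, had 102, 90.0 and 90.4 unstimulated and 65.8, 61.6 and 62.2 after NE. Its groups were far apart relative to their own spread (94.1 ± 6.87 against 63.2 ± 2.28, SD, n = 3), and the log2 fold change of -0.57 (SE 0.232, 95% confidence interval -1.05 to -0.08) gave an unadjusted limma p of 0.0238 and an adjusted p of 0.130. With only the 6 vector libraries in the model its adjusted p was 0.0416, still under the fold threshold. Dusp14 had 79.3, 56.3 and 62.1 unstimulated and 40.3, 48.0 and 54.3 after NE, a log2 fold change of -0.46 (adjusted p = 0.288, 95% confidence interval -0.99 to 0.07). Dusp16, the second p38 and JNK phosphatase, had 116 in its first NE library but 56.3 and 63.5 in the others, beside 63.1 to 94.8 unstimulated, and its log2 fold change was -0.07 (interval -0.64 to 0.50).

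**Figure D2:**
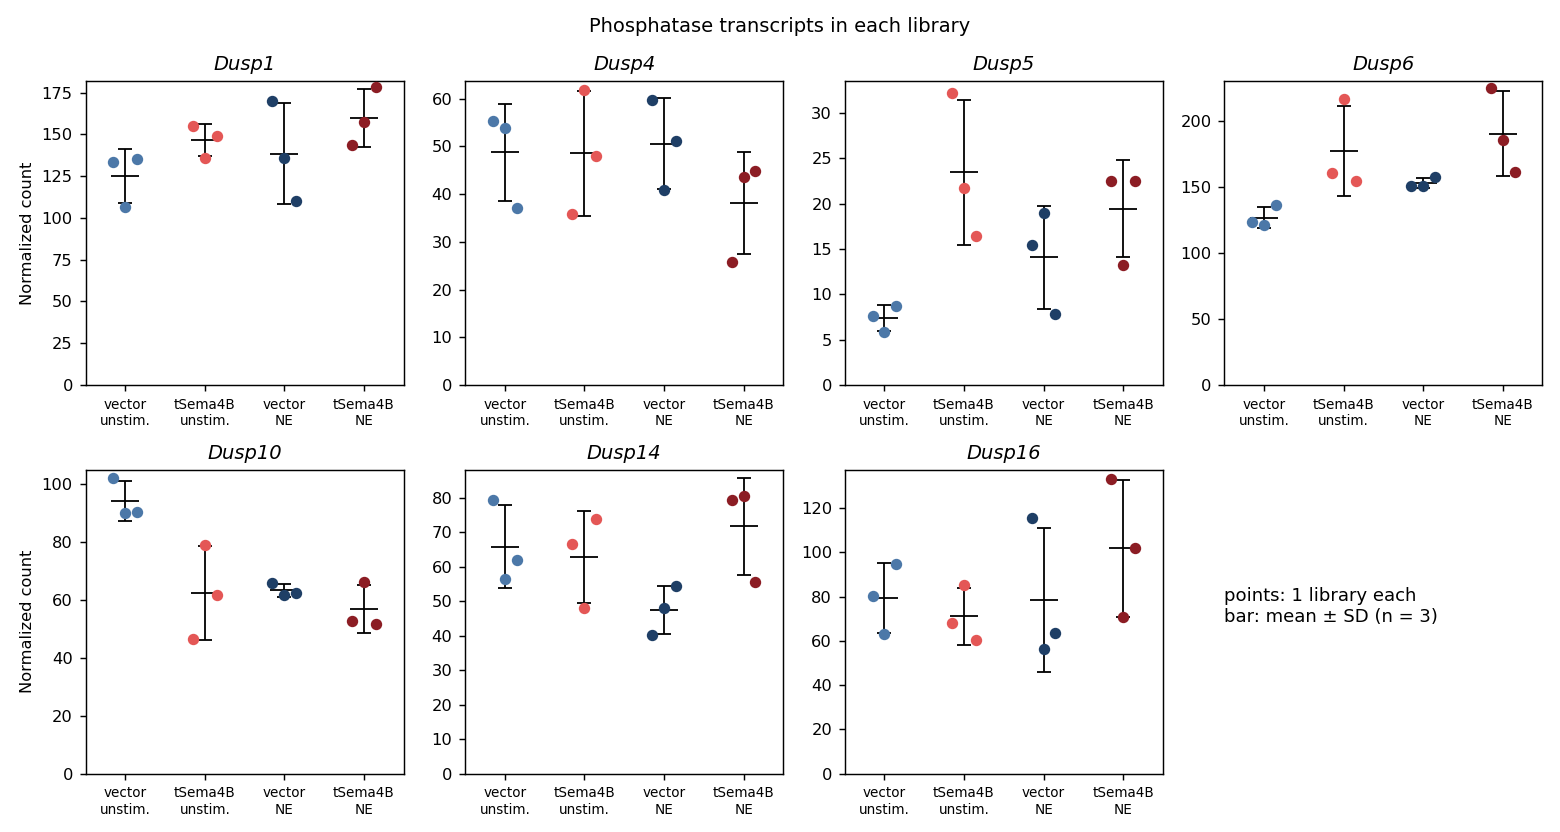
Normalized counts (y axis) of the 7 phosphatase transcripts in each library of the 4 groups (x axis); a point is 1 library and the bar with its error gives the mean ± SD (n = 3). Among the 4 groups, Dusp5 had its own lowest mean in vector unstimulated (libraries from 5.89 to 8.71) and Dusp10 its own highest (90.0 to 102).

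In tSema4B cells NE gave no called phosphatase either (0 of 7 by limma, where 2.07% of all genes were called), 0 of 7 at an unadjusted p under 0.05 (19.9% of all genes) and 0 by edgeR or DESeq2. The groups overlapped for all 7, where 20.7% of all genes showed no overlap. The largest difference was that of Dusp16, with 67.9, 85.1 and 60.2 normalized counts unstimulated and 133, 71.0 and 102 after NE. In log2 it differed by 0.48 (SE 0.276, adjusted p = 0.347, 95% confidence interval -0.09 to 1.05). Dusp1 had 155, 136 and 149 unstimulated and 144, 157 and 178 after NE, a log2 fold change of 0.12 (interval -0.25 to 0.49). For the ERK phosphatase Dusp6 the log2 fold change was 0.11 (interval -0.24 to 0.45), and for Dusp10 it was -0.11 (interval -0.59 to 0.37). The interval lay within 1 on either side of 0 for 5 of the 7, in this comparison as in the vector cells, and Dusp5 (-1.21 to 0.72) was an exception in both. The 2 NE comparisons have no library in common. Csf1r had 0 to 2 reads per library unstimulated and 9 to 19 after NE in this line, also given without a test. The 6 markers summed to 0 to 5.48 normalized counts unstimulated and 9.65 to 24.6 after NE, where Csf1r made up the whole sum except for Cd68 in 1 library (6.63).

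In unstimulated cells, tSema4B was compared with vector to ask how the lines differed before NE. Dusp5 was called higher, 1 of 7, where 3.82% of all genes were called. Its libraries had 7.60, 5.89 and 8.71 normalized counts in vector and 32.2, 21.7 and 16.4 in tSema4B, so the groups did not overlap. The log2 fold change was 1.50 (SE 0.467, 95% confidence interval 0.53 to 2.47) with a limma adjusted p of 0.0352. The reads behind these values were 7 or 8 in a vector library and 12 to 27 in a tSema4B library. Dusp5 passed the filter on low values through the groups other than vector unstimulated, so it entered the test on the side where it was high. Its p-values are therefore given as a description of these libraries and not as support for a difference between the lines. edgeR gave a log2 fold change of 1.66 (adjusted p = 0.0365) and DESeq2 1.68 (adjusted p = 0.0238). The call did not hold without vector unstimulated replicate 1 (adjusted p = 0.0778), 2 (0.115) or 3 (0.0518) or without tSema4B unstimulated replicate 1 (0.141) or 2 (0.0706), while the log2 fold change stayed between 1.26 and 1.72 over all 6 such fits. It was also lost with no filter on low counts (adjusted p = 0.105), with only the 6 libraries compared (0.0640) and at a pseudocount of 10 (log2 fold change 0.92).

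At an unadjusted p under 0.05 there were 3 of 7 (Dusp5, Dusp6 and Dusp10), against 26.1% of all genes. The groups did not overlap for 4 of the 7, against 29.4% of all genes, with Dusp1, Dusp5 and Dusp6 higher and Dusp10 lower in tSema4B. Dusp6 had 161, 217 and 155 normalized counts in tSema4B unstimulated, all above the 121 to 136 of vector unstimulated, and the log2 fold change was 0.46 (adjusted p = 0.0716, 95% confidence interval 0.12 to 0.81). Dusp10 had 46.5, 78.9 and 61.6, all below the 90.0 to 102 of vector, and the log2 fold change was -0.62 (adjusted p = 0.0862, interval -1.10 to -0.13). Without tSema4B unstimulated replicate 2 the value for Dusp10 was -0.80 (adjusted p = 0.0387), short of the fold threshold. Dusp1 was at 136 to 155 in tSema4B and 107 to 135 in vector, a log2 fold change of 0.23 (adjusted p = 0.442, interval -0.14 to 0.60). Dusp4, Dusp14 and Dusp16 overlapped, with log2 fold changes of -0.02, -0.07 and -0.15. The median over the 7 was -0.02 (all genes -0.00). The vector unstimulated libraries were also the reference for NE in vector, so the values of Dusp5, Dusp6 and Dusp10 in these comparisons share them. They stand beside the lower adipocyte markers and mitochondrial share of the tSema4B libraries, and the part of either was not tested.

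After NE, tSema4B and vector were compared in the same way. Of the 7 transcripts 0 were called by limma, edgeR or DESeq2, where limma called 5.76% of all genes, and 1 of 7 (Dusp14) had an unadjusted p under 0.05 (32.9% of all genes). Dusp14 had 79.4, 80.5 and 55.5 normalized counts in tSema4B NE, all above the 40.3 to 54.3 of vector NE. In log2 the difference was 0.57 (SE 0.255, adjusted p = 0.117, 95% confidence interval 0.05 to 1.10). Dusp6 did not overlap either, with 225, 186 and 161 in tSema4B NE against 151 to 158 in vector NE and a log2 fold change of 0.30 (adjusted p = 0.220, interval -0.05 to 0.65). These were the 2 of 7 without overlap, both higher in tSema4B, where 37.7% of all genes showed no overlap. Dusp6 was thus above the vector libraries in tSema4B in either condition, without reaching the threshold in either.

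Dusp5 had 22.5, 13.3 and 22.5 normalized counts in tSema4B NE and 7.86 to 19.0 in vector NE, and the groups overlapped (log2 fold change 0.48, adjusted p = 0.515, interval -0.49 to 1.45). Dusp10 ranged from 51.5 to 66.3 in tSema4B NE and from 61.6 to 65.8 in vector NE, with a log2 fold change of -0.16 (interval -0.64 to 0.32). Dusp1 was at 144, 157 and 178 against 110.0 to 170.0, a log2 fold change of 0.22 (interval -0.15 to 0.59). Dusp4 ranged from 25.7 to 44.9 in tSema4B NE and Dusp16 from 71.0 to 133, and both overlapped with vector NE (log2 fold changes -0.43 and 0.40). The median of the 7 was 0.30 beside -0.01 over all genes.

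Whether the NE response differed between the lines was tested by the interaction. None of the 7 was called by limma, edgeR or DESeq2, and 0 had an unadjusted p under 0.05, against 10.2% of all genes. limma called 3 genes in all (0.025%). The largest value in size was that of Dusp5, where NE stood at 0.78 in vector and -0.25 in tSema4B, a difference of -1.02 (SE 0.661, adjusted p = 0.642, 95% confidence interval -2.40 to 0.35). Dusp14 stood at -0.46 and 0.19, a difference of 0.65 (adjusted p = 0.565, interval -0.10 to 1.40), and Dusp1 at 0.13 and 0.12. The interval lay within 1 on either side of 0 for 2 of the 7, so for most of them a difference of that size was not excluded by these libraries.

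**Figure D3:**
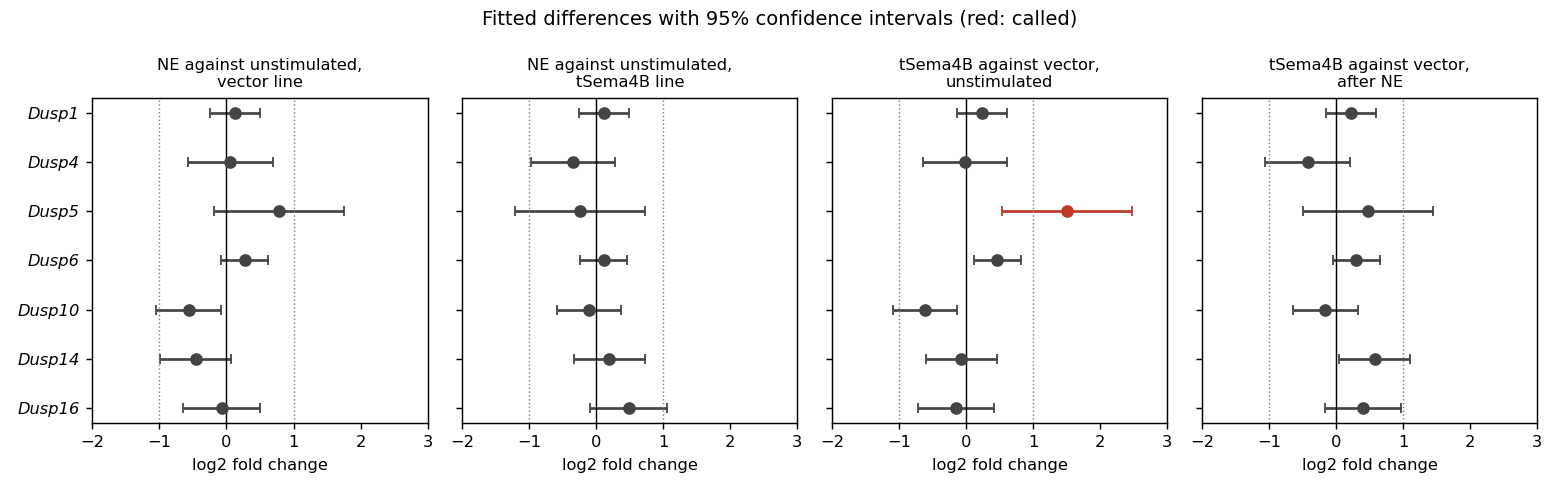
Fitted log2 fold changes (x axis) of the 7 phosphatase transcripts in the 4 comparisons between groups, with points for the limma estimate, bars for the 95% confidence interval and dotted lines at -1 and 1. Dusp5 in tSema4B against vector without stimulation (1.50) is the 1 called value, in red, and 19 of the 28 intervals lie between the dotted lines.

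Over the 28 tests of a transcript between groups, 1 was called and 9 had groups without overlap (32.1%). Over all genes the 4 comparisons gave 2.63, 2.07, 3.82 and 5.76% called and 33.3, 20.7, 29.4 and 37.7% without overlap, so both counts were near the share of any tested gene. The standard error of the log2 fold change ran from 0.167 for Dusp6, which had the most reads, to 0.467 for Dusp5, which had the fewest. The summed normalized counts of the 7 were 497 to 582 in vector unstimulated, 564 to 648 in tSema4B unstimulated, 507 to 618 in vector NE and 616 to 682 in tSema4B NE.

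The tested genes with the nearest pattern over the 12 libraries were named by the root mean square difference of mean-centred log2 values. For Dusp1, whose own root mean square around its mean was 0.211, they were Ercc3 (0.112) and Tm9sf4 (0.128). For Dusp6 (0.264) they were Fez2 (0.117) and Tmem214 (0.133), and for Dusp10 (0.334) Panx1 (0.163) and Aplp2 (0.172). Dusp14 (0.310) had Wdr59 (0.151) and A830080D01Rik (0.152) nearest, and Dusp4 (0.338) had Ormdl1 and Tra2a (both 0.183). Dusp16 (0.377) was followed less closely by Trip10 (0.233) and Nr2c1 (0.241). Dusp5 (0.683) was followed at the greatest distance of the 7, by 9430076C15Rik (0.344) and Casp12 (0.379). These distances are descriptions among 11998 genes and carry no test.

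The other genes of the pathway were taken as 10 lists of 126 genes, of which 103 were tested. These lists were chosen with earlier results of these data known, so their calls and medians are descriptions. The 27 other phosphatases listed (the remaining MAP kinase phosphatases, the atypical dual-specificity phosphatases, and tyrosine and serine/threonine phosphatases that act on MAP kinases) gave 15 tested genes. None of the 15 was called by limma, edgeR or DESeq2 in any comparison. Their counts at an unadjusted p under 0.05 were 0 for NE in vector, 1 for NE in tSema4B, 4 for tSema4B unstimulated, 2 for tSema4B after NE and 0 for the interaction. Over all genes these shares were 23.9, 19.9, 26.1, 32.9 and 10.2%, and 4 of 15 was near the share in its comparison. The median log2 fold change of the 15 was -0.32 for tSema4B unstimulated and -0.25 for tSema4B after NE, beside -0.00 and -0.01 over all genes.

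Among the kinases, 1 of 9 tested MAP kinases was called, in tSema4B after NE. Over all genes limma called 2.63% for NE in vector, 2.07% for NE in tSema4B, 3.82% for tSema4B unstimulated and 5.76% for tSema4B after NE. Mapk6, which encodes the atypical kinase ERK3, had 736 ± 18.6 normalized counts in vector NE and 340 ± 71.9 in tSema4B NE (log2 fold change -1.14, adjusted p = 3.77e-06), and without tSema4B NE replicate 1 it was -0.95 and under the fold threshold. Of 7 MAP2 kinases Map2k6, a direct activator of p38, was called lower after NE in either line. It went from 52.1 ± 11.5 to 21.0 ± 4.02 in vector (log2 fold change -1.27, adjusted p = 0.0277) and from 35.9 ± 12.6 to 14.4 ± 4.47 in tSema4B (-1.24, adjusted p = 0.0488). The call in vector was lost on leaving out any 1 of the 6 libraries (adjusted p of 0.0540 to 0.129), and that in tSema4B on leaving out unstimulated replicate 1 or 2 or NE replicate 2 or 3 (0.101 to 0.169). Of 23 Ras, Raf and MAP3 kinase genes Hras was called, lower in tSema4B unstimulated (89.2 ± 7.63 in vector, 44.0 ± 16.8 in tSema4B; log2 fold change -1.08, adjusted p = 0.0236). The Hras call was lost without vector unstimulated replicate 1, 2 or 3 or tSema4B unstimulated replicate 3 (adjusted p of 0.0611 to 0.132). Of 16 kinases and factors activated by MAP kinases, Rps6ka2, a kinase of the RSK family, was called higher in tSema4B after NE (9.14 ± 6.05 in vector, 33.7 ± 12.4 in tSema4B; log2 fold change 1.92, adjusted p = 0.0163). Its adjusted p was 0.116 without vector NE replicate 2, 0.0648 without tSema4B NE replicate 2 and 0.0622 without tSema4B NE replicate 3.

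Of 16 tested genes transcribed downstream of ERK, 3 were called higher after NE in vector, where 2.63% of all tested genes were called in either direction. Phlda1 rose from 38.0 ± 0.143 to 125 ± 10.7 normalized counts (log2 fold change 1.69, adjusted p = 8.81e-06) and Ier3, an immediate-early gene, from 139 ± 11.1 to 321 ± 9.83 (1.21, adjusted p = 3.07e-05). Fosl1, which encodes the AP-1 subunit Fra-1, rose from 49.9 ± 3.93 to 109.5 ± 38.9 (1.05, adjusted p = 0.0103), but was not called without vector unstimulated replicate 2 (0.98) or vector NE replicate 1 (adjusted p = 0.0688) or 3 (0.0853). In tSema4B cells 1 of 16 was called after NE, where 2.07% of all genes were called. It was Phlda1, with 71.6 ± 13.7 and 155 ± 24.4 (1.11, adjusted p = 0.00160, and 0.95 without tSema4B unstimulated replicate 1). Without stimulation Spred1, an inhibitor of Ras signalling, was higher in tSema4B, at 169 ± 14.4 against 82.3 ± 29.9 (1.09, adjusted p = 0.00279), and was at 0.80 without vector unstimulated replicate 2. The median of the 16 was 0.37 for NE in vector (10 of 16 positive), -0.09 for NE in tSema4B (5 positive), 0.64 for tSema4B unstimulated (14 positive), 0.15 for tSema4B after NE (10 positive) and -0.39 for the interaction (3 positive), while that of all genes lay between -0.02 and 0.01. For tSema4B after NE 0 of 16 were called by limma, edgeR or DESeq2, where limma called 5.76% of all genes. At an unadjusted limma p under 0.05 there were 5 of 16 for NE in vector and 7 for NE in tSema4B. There were 7 for tSema4B unstimulated, 3 for tSema4B after NE and 1 for the interaction. Over all genes these shares were 23.9, 19.9, 26.1, 32.9 and 10.2%.

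Of 11 targets of cAMP that passed the filter, Areg did so through the NE libraries (1 of 6 unstimulated libraries and 6 of 6 with NE reached 10 normalized counts), so its values are given without a test. Of the other 10, 4 were called higher after NE in vector cells, where 2.63% of all genes were called in either direction. The 3 largest were Pde4d (log2 fold change 1.81, adjusted p = 4.23e-04), Nr4a1 (1.71, adjusted p = 0.00338) and Crem (1.69, adjusted p = 6.62e-06). Pde4d encodes a phosphodiesterase that degrades cAMP, Nr4a1 an orphan nuclear receptor and Crem a cAMP-responsive transcription factor. In tSema4B cells 1 of the 10 was called higher after NE, Crem (1.40, adjusted p = 1.20e-04), where 2.07% of all genes were called. Areg, which encodes the growth factor amphiregulin, had 9 to 12 reads per library in vector unstimulated and 68 to 86 in vector NE, and 1 to 7 and 49 to 63 in tSema4B. The median of the 10 was 0.88 in vector and 0.61 in tSema4B. That of the 7 phosphatases was 0.06 and 0.11, with single values from -0.57 to 0.78 and from -0.35 to 0.48. Both lists were chosen with earlier results of these data known, so the cAMP targets are no independent control for the 7. Dusp1, whose window held the full cAMP response element, had log2 fold changes of 0.13 and 0.12 at 6 h. No earlier time was measured, so an early and passing rise could not be seen. Between the lines, Nr4a1 was lower in tSema4B after NE (28.8 ± 11.9 against 84.4 ± 5.81; log2 fold change -1.60, adjusted p = 0.00303). Without stimulation Sik1, a salt-inducible kinase, was higher in tSema4B (1.33, adjusted p = 0.0215) and the clock gene Per1 was lower (-1.28, adjusted p = 0.0147). Leaving out vector unstimulated replicate 2 or 3 or tSema4B unstimulated replicate 2 or 3 raised the adjusted p of Sik1 to between 0.0515 and 0.0881, and leaving out vector unstimulated replicate 1 or 2 or tSema4B unstimulated replicate 3 raised that of Per1 to between 0.0545 and 0.0838.

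Of 6 glucocorticoid targets, Zbtb16, a zinc finger factor, was the 1 called, in tSema4B after NE, where 5.76% of all genes were called. Zbtb16 was lower in tSema4B (118.7 ± 11.2 in vector, 58.9 ± 13.1 in tSema4B, log2 fold change -1.02, adjusted p = 0.00268). It stood at -0.95 without vector NE replicate 1 and at -0.83 without tSema4B NE replicate 2, under the fold threshold. Over all 10 lists and with Areg left out, NE in vector had 3 genes downstream of ERK and 4 cAMP targets called higher and 1 MAP2 kinase called lower. Of all tested genes 2.63% were called for NE in vector and 2.07% for NE in tSema4B. For NE in tSema4B the same lists had 1, 1 and 1, in the same directions. There were 2 higher and 2 lower calls of 103 for tSema4B unstimulated, where 3.82% of all genes were called. For tSema4B after NE there were 1 and 3 of 103, where 5.76% were called. These counts were near or under the shares of all genes. For the interaction 0 of 103 were called by limma, against 0.025% of all genes.

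**Figure D4:**
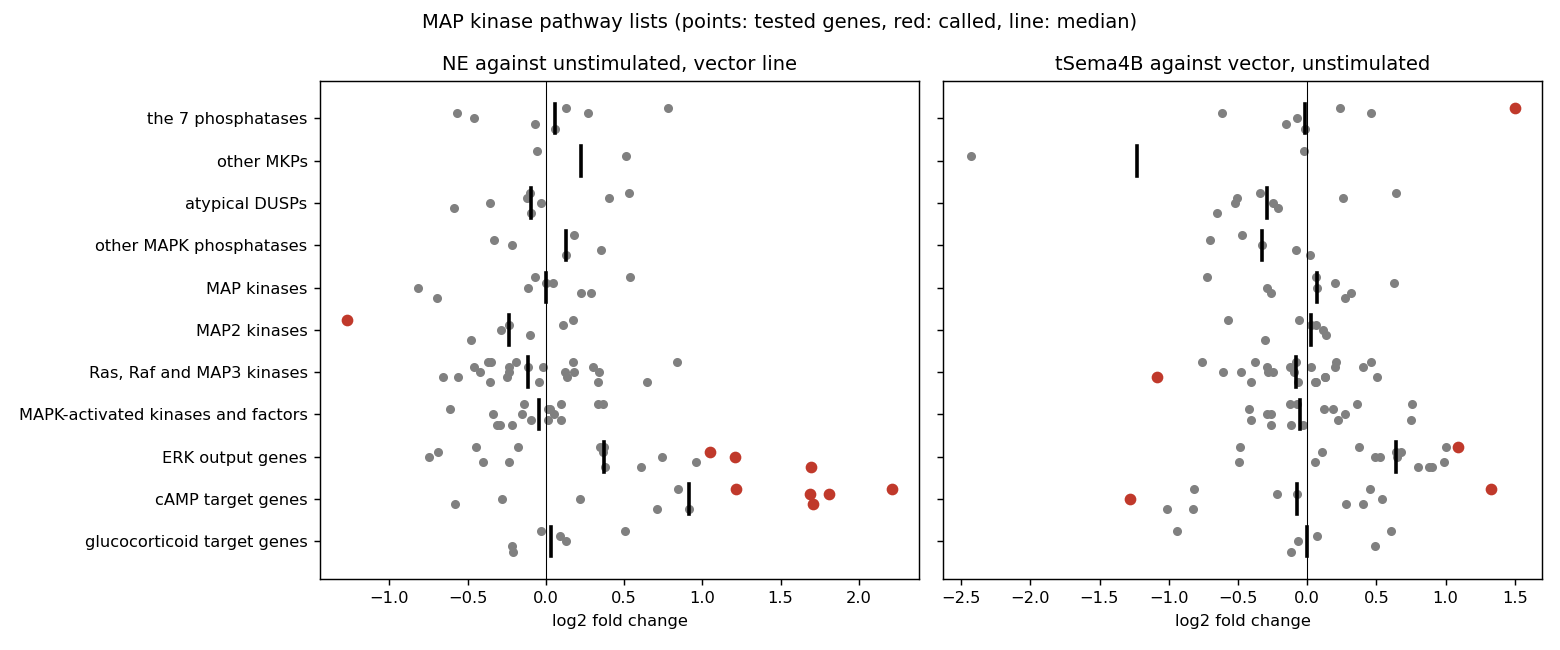
Log2 fold changes (x axis) of the tested genes of each MAP kinase pathway list (y axis) for NE in vector and for tSema4B against vector without stimulation; each point is 1 gene, red points were called and a line marks the list's median. After NE the 7 phosphatases spread from -0.57 to 0.78 around a median of 0.06. The 10 cAMP targets without Areg had a median of 0.88. Areg is drawn and included in the line of its list (0.91), but its difference is given without a test. The lists were chosen with earlier results of these data known and were not tested against each other.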

How the data were processed

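RNAseq libraries of 12 samples, 3 in each of 4 groups, were assigned to their groups from their labels, and 0 columns were left unused. cDNA was made by SMART-Seq2 and sequenced from Nextera XT libraries as single-end reads. The authors removed non-murine reads, aligned the rest to mm10 (GRCm38.p4) with STAR 2.7.9a, counted reads per gene with HTSeq and scaled the counts with DESeq2, per the paper's methods and the submitters' processing notes. The deposited signal is therefore a normalized read count, the count divided by the size factor of its library. The annotation, the strand setting and the handling of reads with several matches are not given in the sources used here. In every library 100% of values were whole multiples of 1 read (tolerance 0.01), which gave back the whole reads. Values of 2 duplicated symbols were kept as separate genes.

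Genes were tested with limma 3.58.1 (R 4.3.3) on log2(normalized count + 1), with one model of the 4 group means and a variance trend, for genes that reached 10 normalized counts in 3 or more libraries. The p-values are two-sided and were adjusted by Benjamini-Hochberg for 11998 genes. Fold changes are on that log2 scale and understate those of low genes. Calls needed an adjusted p up to 0.05 and a log2 difference of 1 or more in either direction, except for the interaction, where the adjusted p sufficed. The alternatives were pseudocounts of 0.5 and 10, no filter or one at 50, rescaling by the total of all or of nuclear genes, quantile normalization, whole reads in edgeR 4.0.16 and DESeq2 1.42.0, only the libraries compared, the adjusted p alone, a replicate block, and each library left out. The fits were tested on simulated data.

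The 7 genes and the lists were chosen with earlier results of these data known. The genes named are the 7, for each pathway list at most the 4 largest called in a comparison, the 2 nearest patterns of each of the 7, and the markers Adipoq, Fabp4, Pdgfra and Dlk1. Ucp1 and Sema4b were named in addition, as checks of the cells and of the construct, and Csf1r, Cd68, Adgre1 and Ptprc after their values were seen. Ergic1 and AC137853.2 were named because they share exon bases with Dusp1 and Dusp5. Fabp4, a fatty acid carrier, had means of 24034 and 4091 normalized counts in vector and tSema4B unstimulated. Those of Pdgfra and Dlk1, both expressed by preadipocytes, were 527 and 783, and 1781 and 2298. Macrophage, endothelial and mural lists summed to at most 24.6, 23.3 and 1193 in any library. Libraries of the same group differed by more than counting noise (chi-square per degree of freedom 3.65 to 6.12 over 12 pairs), so none was counted as a copy of another.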

Additional observations from a re-analysis of the deposited data

How the results depend on the processing

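Over 35 fitted values of the 7 phosphatases, 652 alternative values were computed, of which 622 kept the direction and side of the threshold. The call of Dusp5 in tSema4B unstimulated was the weak point. The number of phosphatases called there was 0 at a pseudocount of 10, with no filter, with a filter at 50 (where Dusp5 was not tested) and with only the libraries compared, and 0 to 1 on leaving out single libraries. The adjusted p of Dusp5 ran from 0.0238 to 0.141 over 17 alternatives, 9 of which kept the call. These p-values describe the libraries and are not support, as its vector unstimulated libraries were all under the filter. In no other comparison was a phosphatase called under any alternative run. Of the pathway calls, Map2k6 held in 9 of 17 alternatives for NE in vector and 5 of 17 for NE in tSema4B, Sik1 in 11 of 17, Hras in 12 of 18, Rps6ka2 in 13 of 17, Fosl1, Per1 and Zbtb16 in 14 of 18, and none reversed.

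Directions reversed for 9 of the 35 values, none of them called. On leaving out single libraries the log2 fold change ran from -0.026 to 0.29 (Dusp1), -0.12 to 0.20 (Dusp4) and -0.38 to 0.13 (Dusp16) for NE in vector, from -0.46 to 0.0012 (Dusp5), -0.020 to 0.26 (Dusp6) and -0.30 to 0.074 (Dusp10) for NE in tSema4B, from -0.21 to 0.18 (Dusp4) and -0.20 to 0.11 (Dusp14) for tSema4B unstimulated, and from -0.17 to 0.14 (Dusp1) for the interaction. Rescaling to the same total gave 0.00605 and quantile normalization 0.00615 for Dusp4 in tSema4B unstimulated. For the interaction of Dusp1, rescaling gave 0.056 (same total) and 0.022 (nuclear genes). The cause was not tested. With the longest transcript as length, levels per kb were 61.6 for Dusp1, 39.5 for Dusp14 and 16.2 for Dusp16.

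Same-numbered libraries did not deviate together (correlations of -0.047 to 0.028 over 18 pairs of libraries, 0 over 0.1). With the replicate number as a block, Dusp5 in tSema4B unstimulated stood at 1.50 (limma adjusted p = 0.0446) and stayed called. Dusp5 passed the filter through groups other than vector unstimulated, so this p-value describes these libraries and is not support. The block changed no call among the 7, and among the pathway genes named only that of Map2k6 for NE in tSema4B (adjusted p = 0.0552). It moved the number of all genes called from 316 to 303, 248 to 238, 458 to 451 and 691 to 680 in NE in vector, NE in tSema4B, tSema4B unstimulated and tSema4B after NE.

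With the adjusted p alone these numbers were 1392, 750, 1564 and 2517. NE in tSema4B had 157 with only its libraries. For the interaction the number was 3, but 74 by DESeq2, 0 with no filter and 1 to 31 on leaving out single libraries (31 without tSema4B unstimulated replicate 2). Depth limits Dusp5 most, at 7 to 32 reads per library.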
